A study of Mus musculus with 6 samples.

Results

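The teneurins and latrophilins are 7 mouse genes: the 4 teneurins Tenm1, Tenm2, Tenm3 and Tenm4, and the 3 latrophilins Adgrl1, Adgrl2 and Adgrl3. They were chosen by gene symbol, as the complete set of each family, and with earlier results of these data known. All 7 had an entry in every expression table, among 19006 mouse genes measured by SCRB-seq, 21987 measured in bulk by SMART-Seq2, 21608 in single nuclei on plates and 19905 in droplets.

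Teneurins are large type II transmembrane proteins whose extracellular part reaches across the cleft between cells, and latrophilins are adhesion G protein-coupled receptors that bind them. A teneurin on one neuron and a latrophilin on its partner form an adhesion pair that takes part in axon targeting and in the choice and assembly of synapses. Latrophilins also bind the FLRT proteins, which in turn bind the netrin receptors of the Unc5 family, and their cytoplasmic tails bind Shank scaffolds.

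The study isolated nuclei from formalin-fixed, paraffin-embedded (FFPE) brain of C57BL/6J mice aged 8 to 12 weeks, cut as scrolls 50 µm thick and labelled as cortex. Paraffin was removed in 3 ways: with mineral oil and heat, with xylene and heat, or with xylene at room temperature. Sorted nuclei were read in bulk wells by SCRB-seq (a 3′ count method) and by SMART-Seq2 (full-length reads), singly on plates by SMART-Seq2, and in droplets on the 10x platform. Frozen nuclei serve as the reference in the bulk and plate data. They are named in the tables of wells and nuclei and not in the sample labels, so their strain, age and dissection cannot be stated.

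In SCRB-seq there were 64 wells, 16 for each of the 3 FFPE methods and 16 frozen, and each set of 16 held 8 wells of 10 nuclei and 8 wells of 100 nuclei. The SMART-Seq2 bulk data had 12 wells, with 1 well each of 100, 50 and 10 nuclei per treatment. The number of animals behind a group is not given, and nothing says that wells came from separate animals, so every p-value here measures only the spread between wells. The 8 SCRB-seq library pools coincide with the combinations of treatment and nuclei number, so pool and treatment cannot be told apart. Well totals ran from 7512 to 167144 counts in SCRB-seq and from 270363 to 942966 in SMART-Seq2. Levels are given as CPM, counts scaled to the total of the same well, nucleus set or class (counts-per-million).

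The cell make-up of the FFPE and frozen material differed in markers that move with every FFPE and frozen comparison below. The cerebellar granule neuron list, 7 of its 8 genes measured, summed to 295 to 6115 CPM (median 1528) in the 48 FFPE wells of SCRB-seq and to 0 to 101 CPM (median 18.2) in the 16 frozen wells, where its defining genes Gabra6 and Cbln3 were at 0. In SMART-Seq2 wells the same list summed to 1510 to 3914 CPM in FFPE and 44.4 to 143 CPM in frozen wells, where Gabra6, Cbln3, Cbln1, Zic1 and Pax6 were at 0. The cortical excitatory neuron list, with all 8 genes measured, ran the other way, at 95.8 to 1347 CPM (median 527) in FFPE wells against 1101 to 2142 CPM (median 1621) in frozen wells of SCRB-seq. The label of cortex therefore goes with granule neuron markers in every FFPE set, and the part of this difference in the results on teneurins and latrophilins was not tested. In bulk wells, fewer nuclei of a type and less RNA per nucleus cannot be told apart.

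The promoters of the genes are shown for Tenm4, whose level fell in FFPE wells, and for Adgrl1, the latrophilin with the fewest counts in the bulk wells of both assays. These are the members whose RefSeq start lies within 10 bases of the 5′ end of the GENCODE gene. Each sequence is the 250 bases before the start on the coding strand of GRCm38.p6 from the RefSeq promoter table, in lower case with CG dinucleotides in capitals, at chr7:96170994-96171243 and chr8:83899848-83900097, both on the plus strand.
Tenm4: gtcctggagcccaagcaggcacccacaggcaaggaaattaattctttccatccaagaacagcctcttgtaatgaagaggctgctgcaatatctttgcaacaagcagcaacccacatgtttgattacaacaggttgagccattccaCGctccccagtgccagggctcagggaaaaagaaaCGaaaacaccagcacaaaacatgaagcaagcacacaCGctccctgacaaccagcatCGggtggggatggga
Adgrl1: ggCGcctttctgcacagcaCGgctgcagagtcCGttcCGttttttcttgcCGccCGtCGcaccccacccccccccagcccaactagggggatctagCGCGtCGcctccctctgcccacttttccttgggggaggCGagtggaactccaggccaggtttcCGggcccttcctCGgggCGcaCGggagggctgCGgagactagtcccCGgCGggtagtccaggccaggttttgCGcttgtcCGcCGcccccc
The Tenm4 window held 4 CG dinucleotides at 50.8% G and C, and 62.2% of all 32851 windows in the table held at least as many. The Adgrl1 window held 21 at 68.8% G and C, a number reached by 16.3% of windows, where the median window held 6. These counts describe the letters only. The RefSeq starts of Tenm1, Tenm2, Tenm3 and Adgrl2 lie 154, 292, 169 and 35.9 kb inside the GENCODE gene and the nearest start of Adgrl3 lies 433 bases inside, so their windows are not shown.

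Most of these genes are long. In the GENCODE M21 annotation of GRCm38, Tenm2 spans 1229 kb (11:36006656-37235964, minus strand), Tenm1 901 kb (X:42527866-43429126, minus), Adgrl3 805 kb (5:81020138-81825133, plus), Tenm4 740 kb (7:96171246-96911093, plus), Tenm3 616 kb (8:48227682-48843951, minus), Adgrl2 175 kb (3:148815583-148990555, minus) and Adgrl1 41.9 kb (8:83900105-83941954, plus). All 7 are annotated as protein coding, and their merged exons come to between 8.587 kb (Adgrl1) and 21.021 kb (Tenm4). The libraries were made from nuclei. No source used here says whether counts came from exons only or from introns too.

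Between FFPE and frozen wells the teneurins moved apart from each other. Tenm2 and Tenm4 were lower in FFPE wells in both assays and Tenm1 was higher in both, while Tenm3 passed the test in neither. Of the latrophilins, Adgrl3 was lower in FFPE wells of SCRB-seq and Adgrl2 was lower in FFPE wells of SMART-Seq2. In SCRB-seq, 5 of the 7 genes had enough counts to be tested and 4 were called at an adjusted p under 0.05 (quasi-likelihood test of edgeR, adjusted by Benjamini-Hochberg over all genes tested), 1 higher and 3 lower, while 58% of all 1478 genes tested were called, 30.2% higher and 27.7% lower. In SMART-Seq2, 6 were tested and 4 called, again 1 higher and 3 lower, against 4.09% of all 9092 genes tested, 1.45% higher and 2.64% lower. The median log2 difference over the tested members was -0.72 in SCRB-seq and -1.57 in SMART-Seq2, beside medians over all tested genes of 0.0041 and -0.13.

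Tenm2, the teneurin known as a high-affinity ligand of latrophilin 1, had the lowest FFPE level relative to frozen of the 4 teneurins in SCRB-seq. Its level ran from 876 to 2842 CPM (median 1834) in the 16 frozen wells and from 0 to 1520 CPM (median 431) in the 48 FFPE wells. All 48 FFPE wells were under the frozen mean and 42 were under the lowest frozen well. The log2 difference was -2.07 (SE 0.21, adjusted p = 8.46e-14). In SMART-Seq2 the frozen wells of 100, 50 and 10 nuclei held 2921, 2467 and 4365 CPM. The corresponding wells held 494, 468 and 162 CPM after mineral oil, 1566, 2025 and 2201 CPM after xylene with heat, and 1068, 764 and 1882 CPM after xylene at room temperature. All 9 FFPE wells were under all 3 frozen wells, with a log2 difference of -2.02 (SE 0.31, adjusted p = 0.000225). Tenm2 kept its call in each of the 64 SCRB-seq and 12 SMART-Seq2 fits that left out 1 well. It was the only member called when the SCRB-seq counts were summed per library pool (log2 difference -2.20, adjusted p = 0.0338). In that fit 77 of 10235 genes were called, 19 higher and 58 lower.

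Tenm4, the family member known for a role in the differentiation of oligodendrocytes, was also lower in FFPE wells. Frozen wells ran from 481 to 1038 CPM (median 785) and FFPE wells from 86.9 to 1265 CPM (median 464.5). The ranges overlapped, but 41 of 48 FFPE wells were under the frozen mean, and the log2 difference was -0.72 (SE 0.22, adjusted p = 0.00368). DESeq2 size factors gave -1.35 (adjusted p = 6.32e-08), a scaling that moved the median of all tested genes by a like amount, as given with Tenm1. With no filter on low counts the adjusted p was 0.0556, in wells of 10 nuclei alone 0.0892, and with counts summed per library pool 0.613. In SMART-Seq2 the frozen wells of 100, 50 and 10 nuclei held 1149, 1043 and 1467 CPM of Tenm4. The 9 FFPE wells held 102 to 553 CPM and none reached a frozen well. The log2 difference there was -2.03 (SE 0.39, adjusted p = 0.00237), and the gene was called in every fit that left out 1 well.

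Tenm1, the X-linked teneurin, was the member with a higher level in FFPE wells. In SCRB-seq it ran from 29.6 to 450 CPM (median 164) in frozen wells and from 0 to 957 CPM (median 310) in FFPE wells. The groups overlapped: 30 of 48 FFPE wells were over the frozen mean and 15 were over the highest frozen well. The log2 difference was 0.80 (SE 0.31, adjusted p = 0.0247), a 1.74-fold change with a 95% interval of 1.13 to 2.69. That call depended on the scaling, since DESeq2 size factors moved the median log2 difference of all tested genes from 0.0041 to -0.58 and that of Tenm1 to 0.23 (adjusted p = 0.545). Under those factors 309 genes were called higher and 674 lower, against 447 and 410 with the TMM scaling used otherwise. They gave -2.65 for Tenm2 and -1.58 for Adgrl3, both still called. The call was also lost with DESeq2's Wald test (adjusted p = 0.517), in wells of 10 nuclei alone (0.25, adjusted p = 0.703), with counts summed per pool (adjusted p = 0.50), and without 1 of the frozen wells of 10 nuclei (0.72, adjusted p = 0.0512). It was kept in wells of 100 nuclei alone (1.18, SE 0.30, adjusted p = 0.00133) and with no filter on low counts (0.97, adjusted p = 0.0306).

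The SMART-Seq2 difference of Tenm1 was larger. Frozen wells of 100, 50 and 10 nuclei held 174, 259 and 156 CPM. After mineral oil the wells held 1657, 1344 and 1048 CPM, after xylene with heat 1188, 1261 and 279 CPM, and after xylene at room temperature 821, 1055 and 254 CPM. All but 1 of the 9 FFPE wells were over the highest frozen well, and the wells of 10 nuclei that had been in xylene lay close to it. The log2 difference was 2.03 (SE 0.48, adjusted p = 0.0144). The direction held in all 12 fits that left out 1 well, but the adjusted p was 0.0604 without the frozen well of 100 nuclei and 0.0869 without the frozen well of 10 nuclei.

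Tenm3, a teneurin known for matching connections in the visual system and hippocampus, was spread widely among FFPE wells. Frozen wells of SCRB-seq held 53.1 to 542 CPM (median 308) and FFPE wells 0 to 2163 CPM (median 296). FFPE wells fell on both sides of the frozen range, with 17 of 48 over its highest and 9 under its lowest well. The log2 difference was 0.16 with a 95% interval of -0.53 to 0.84 (adjusted p = 0.715), and its sign was negative with DESeq2 size factors (-0.39) and with DESeq2's Wald test (-0.41). In SMART-Seq2 the 3 frozen wells held 371, 411 and 331 CPM and the difference was 0.39 with an interval of -0.38 to 1.17 (adjusted p = 0.731). The FFPE wells there split by method: the 3 mineral oil wells held 268, 170 and 304 CPM, all under the frozen wells, and the 6 xylene wells held 689 to 1282 CPM, all over them.

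**Figure D1:**
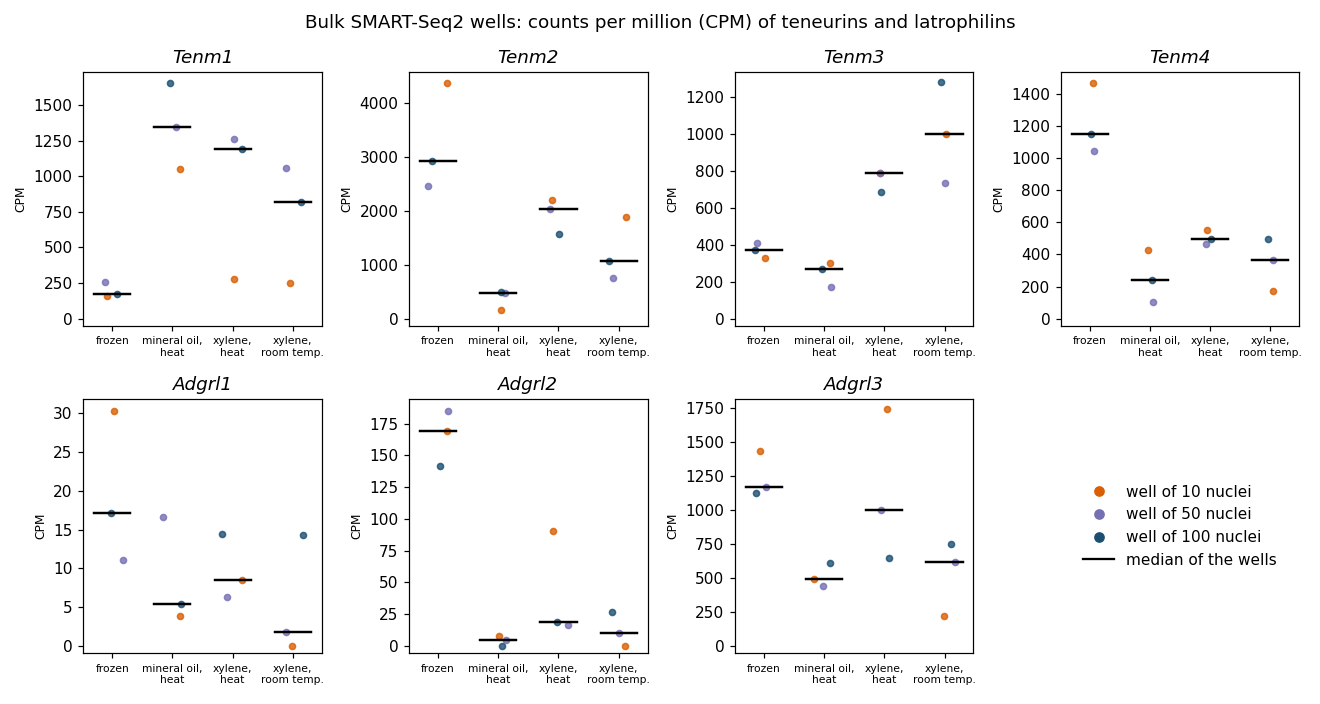
CPM of the 7 genes in the 12 SMART-Seq2 bulk wells, by treatment, with 1 well each of 100, 50 and 10 nuclei. The 9 FFPE wells lie under the 3 frozen wells for Tenm2, Tenm4 and Adgrl2, and mineral oil wells of Tenm3 lie under its xylene wells.

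The latrophilins had fewer counts than the teneurins apart from Adgrl3. Adgrl3, the receptor that pairs with FLRT proteins at excitatory synapses, ran from 216 to 843 CPM (median 626) in frozen SCRB-seq wells and from 0 to 1043 CPM (median 253) in FFPE wells. In FFPE wells 44 of 48 were under the frozen mean, and the log2 difference was -1.0003 (SE 0.25, adjusted p = 0.000350). It remained called in every fit that left out 1 well, and with counts summed per library pool it was -1.14 (adjusted p = 0.344). In SMART-Seq2 the frozen wells held 1123, 1173 and 1434 CPM, and 8 of the 9 FFPE wells were lower, the exception being the xylene and heat well of 10 nuclei at 1740 CPM. There the log2 difference of -1.13 (SE 0.36) did not pass the test (adjusted p = 0.0912), and without that well it was -1.31 (adjusted p = 0.0306).

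Adgrl2, whose protein takes part in synapse formation on hippocampal dendrites, had the largest fitted difference of the 6 members tested in SMART-Seq2. Frozen wells of 100, 50 and 10 nuclei held 141, 185 and 169 CPM. The FFPE wells held 0, 4.73 and 7.80 CPM after mineral oil, 18.7, 16.6 and 90.1 CPM after xylene with heat, and 26.5, 10.6 and 0 CPM after xylene at room temperature. No FFPE well reached a frozen well, and the log2 difference was -3.88 (SE 0.96, adjusted p = 0.0186). With 3 frozen wells the call rested on each of them: the adjusted p was 0.118 without the well of 100 nuclei, 0.139 without that of 50 and 0.154 without that of 10. In SCRB-seq Adgrl2 failed the filter on low counts. It ran from 0 to 373 CPM (median 58.0) in frozen wells and from 0 to 154 CPM (median 0) in FFPE wells, with 47 of 48 FFPE wells under the frozen mean. A fit with no filter gave -2.98 (adjusted p = 8.18e-08).

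Adgrl1, the latrophilin first found as a receptor for the black widow spider toxin latrotoxin, failed the filter on low counts in both bulk assays. Pooled over wells it stood at 5.63 CPM in frozen nuclei, 1.77 CPM after xylene with heat and 6.00 CPM after xylene at room temperature in SCRB-seq. Mineral oil wells held 0 counts, which allows up to 4.39 CPM. A fit with no filter gave -1.05 for FFPE minus frozen wells (SE 0.41, adjusted p = 0.115). Among the methods that fit called Adgrl1 between mineral oil and xylene at room temperature alone (adjusted p = 0.0489), on 0 counts against 7 counts in 2 wells. In SMART-Seq2 the frozen wells held 17.1, 11.1 and 30.3 CPM, and the 9 FFPE wells held 0 to 16.6 CPM, with 6 under the lowest frozen well. The fit with no filter gave -1.57 there (SE 1.59, adjusted p = 0.770).

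**Figure D2:**
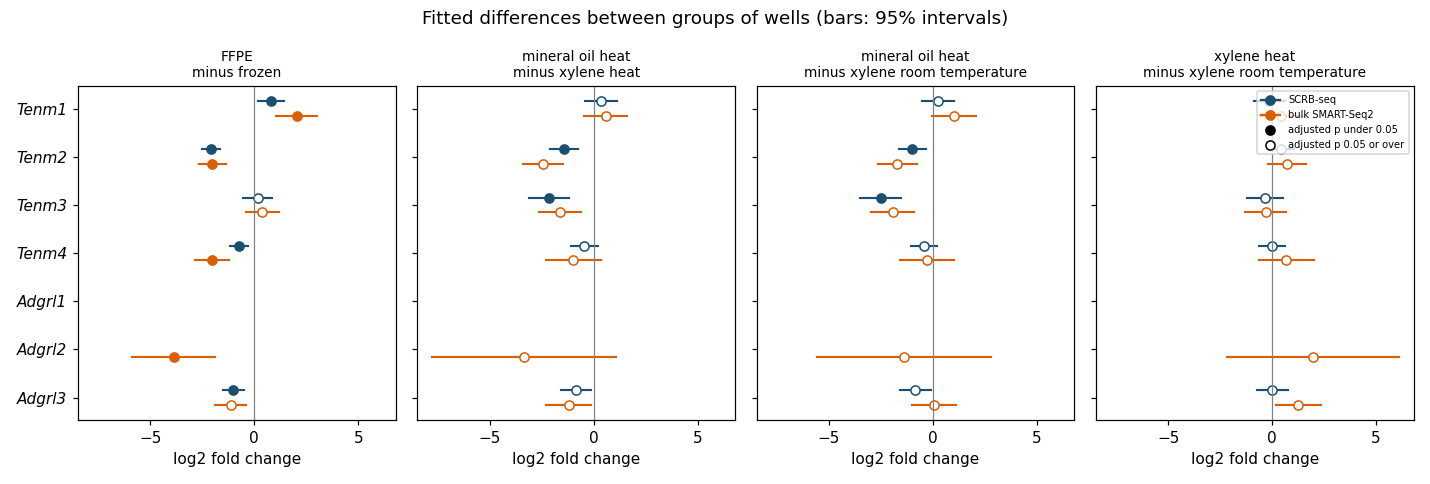
Log2 differences of the tested members with 95% intervals, for FFPE minus frozen wells and for the comparisons between paraffin removal methods, in each bulk assay. Tenm1 lies above 0 and Tenm2 and Tenm4 below 0 in both assays for FFPE minus frozen.

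The balance between Tenm1 and Tenm2 shifted in both assays. Tenm1 made up a median of 8.30% of the summed Tenm1 and Tenm2 counts in the 16 frozen SCRB-seq wells (range 1.56% to 29.6%). The median was 56.8% after mineral oil, 32.7% after xylene with heat and 36.8% after xylene at room temperature. In SMART-Seq2 the share was 3.45% to 9.50% in the 3 frozen wells, 74.2% to 86.6% after mineral oil, 11.2% to 43.1% after xylene with heat and 11.9% to 58.0% after xylene at room temperature. The frozen wells thus lay under every FFPE well in SMART-Seq2 but overlapped them in SCRB-seq. This share was looked at after the values of both genes were known and carries no test.

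Levels in the full-length SMART-Seq2 data are also given per kilobase of exon, though it is not known whether introns were counted. In frozen wells the order was Tenm2 at 317 CPM per kb, then Adgrl3 at 73.3, Tenm4 at 62.1, Tenm3 at 34.7, Adgrl2 at 11.6, Tenm1 at 10.0 and Adgrl1 at 2.72. In FFPE wells pooled over methods it was Tenm2 at 112 CPM per kb, Tenm3 at 65.9, Tenm1 at 55.2, Adgrl3 at 45.8, Tenm4 at 18.6, Adgrl2 at 1.70 and Adgrl1 at 0.907. Tenm1 thus came next to last in frozen wells, and in mineral oil wells it had the highest level of the 7 genes, at 78.4 CPM per kb against 33.7 for Tenm2. Merged exon length is a scale for these levels and not the length of the transcripts in these nuclei. If introns were counted, this scale does not make the genes comparable, so the order is not one of abundance.

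Among the 3 ways of removing paraffin, Tenm2 and Tenm3 were lower after mineral oil than after either xylene treatment in SCRB-seq, and no tested member passed the test between the xylene treatments. Against xylene with heat, 2 of the 5 tested members were called, both lower, where 8.52% of all 1080 genes tested were called. Against xylene at room temperature the same count of 2 stood beside 10.3% of genes. Between xylene with heat and at room temperature 0 members were called by edgeR, 0 at an unadjusted p under 0.05 and 0 by DESeq2, beside 1.94% of genes. With no filter on low counts 1 member was called there, Adgrl2, higher after xylene with heat (log2 difference 2.11, SE 0.66, adjusted p = 0.0162), among 2899 of 18205 genes.

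For Tenm3, mineral oil wells ran from 0 to 585 CPM (median 30.3), wells of xylene with heat from 93.4 to 1010 CPM (median 410) and wells of xylene at room temperature from 62.4 to 2163 CPM (median 577). Of the 16 mineral oil wells, 15 lay under the mean of xylene with heat and 16 under the mean of xylene at room temperature. The log2 differences were -2.15 (SE 0.48, adjusted p = 0.00182) and -2.51 (SE 0.48, adjusted p = 0.000306). Both were called in each of 48 fits that left out 1 well.

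For Tenm2, mineral oil wells ran from 0 to 632 CPM (median 176), against 197 to 1520 CPM (median 671) after xylene with heat and 201 to 1070 CPM (median 528) after xylene at room temperature. The mineral oil wells lay under the mean of xylene with heat in 16 of 16 cases and under that of xylene at room temperature in 14 of 16. The log2 differences were -1.43 (SE 0.33, adjusted p = 0.00253) and -0.99 (SE 0.33, adjusted p = 0.0409). The second was lost in 16 of the 48 fits that left out 1 well, with adjusted p-values up to 0.0710, and it was not called in wells of 100 nuclei alone (adjusted p = 0.239) or of 10 alone (0.0578). The first had an adjusted p of 0.0736 in wells of 100 nuclei alone, where Tenm4 was called instead (-0.9997, SE 0.30, adjusted p = 0.0235). With counts summed per library pool, 2 pools a method, 0 of 9161 genes were called in each comparison. Tenm2 and Tenm3 were thus called in neither (adjusted p = 1 for both genes against xylene with heat and 1.00 against room temperature). Markers moved with the methods as well: the oligodendrocyte list summed to a median of 310 CPM (range 0 to 1876) after mineral oil, 2391 CPM (967 to 5953) after xylene with heat and 2249 CPM (624.7 to 15990) after xylene at room temperature, and its part in the result was not tested. Well totals differed too, with a median of 26386 counts after mineral oil against 67426 and 64960 after the xylene treatments.

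SMART-Seq2 wells gave lower Tenm2 and Tenm3 levels after mineral oil as well, but no member passed the test. Of 8372 genes tested, 0% were called by edgeR in each of the 3 comparisons. At an unadjusted p under 0.05 there were 314 genes for mineral oil against xylene with heat, 379 against xylene at room temperature and 199 between the xylene treatments, with 3, 2 and 1 members among them. DESeq2's Wald test called 16, 20 and 1 genes. The Tenm2 wells after mineral oil, at 162 to 494 CPM, lay under all 6 xylene wells, at 764 to 2201 CPM. Its log2 difference from xylene with heat was -2.43 (SE 0.47, adjusted p = 0.0716 by edgeR, 0.0492 by DESeq2's Wald test and 4.10e-05 with no filter on low counts). Without 1 well the adjusted p fell under the threshold in 4 of 9 fits (0.00432 to 0.0230), which leave out the xylene and heat well of 100 nuclei or any of the xylene wells at room temperature. For Tenm3 the differences were -1.63 (adjusted p = 0.679) and -1.93 (adjusted p = 0.493).

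For Adgrl3 the difference between mineral oil and each xylene treatment varied with the number of nuclei in a well. After mineral oil it stood at 69.5 CPM in the pooled wells of 10 nuclei, from 8 counts in 8 wells, and at 352 CPM in those of 100. After xylene with heat the values were 327 and 449 CPM, and after xylene at room temperature 295.5 and 370 CPM. The difference between mineral oil and xylene with heat was lower by 1.84 on the log2 scale in wells of 10 nuclei than in wells of 100 (SE 0.72, adjusted p = 0.0487). For mineral oil against xylene at room temperature it was lower by 2.52 (SE 0.72, adjusted p = 0.00548). Over all genes, 28.6% and 29.6% passed this test of interaction, which was added after the data were seen, so Adgrl3 is 1 of many such genes. The other members did not pass it there (adjusted p of 0.163 or more), though the estimates for Tenm3 were of like size and less precise, at -2.01 (SE 1.11) and -2.06 (SE 1.11), and no test set Adgrl3 apart from Tenm3. Of the 5 tested members, 0 passed in the FFPE and frozen comparison (18.9% of genes) or between the xylene treatments (5% of genes). Over all wells Adgrl3 was not called between methods (log2 difference -0.85 against each xylene treatment, adjusted p = 0.148 and 0.137), and leaving out 1 mineral oil well of 100 nuclei brought it to 0.0393 and 0.0447. With nuclei number as a covariate it was called against xylene at room temperature (-1.03, adjusted p = 0.0436) and not against xylene with heat (adjusted p = 0.0630).

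The genes that connect to this pair of families were followed with a list of 12, of which 10 were measured in the bulk wells and plate nuclei. In SCRB-seq 6 of the 10 were tested between FFPE and frozen wells, with 0 higher and 2 lower, a smaller share than the 58% of all genes called in that comparison. Unc5d, a netrin receptor that binds FLRT proteins, ran from 0 to 884 CPM (median 67.9) in FFPE wells and from 114 to 1957 CPM (median 485) in frozen wells, a log2 difference of -2.76 (SE 0.29, adjusted p = 4.87e-13). Shank1, a postsynaptic scaffold, differed by -1.56 (SE 0.40, adjusted p = 0.000506). In SMART-Seq2 all 10 were tested, with 1 higher and 2 lower, beside 4.09% of all genes. Unc5d was lower there too (-5.12, SE 0.83, adjusted p = 0.000400) and so was the scaffold Shank2 (-3.22, SE 0.50, adjusted p = 0.000255). Unc5b, a netrin receptor also known from blood vessels, had 0 counts in the 3 frozen wells and was found in all 9 FFPE wells at 40.4 CPM pooled, at least 21.9-fold higher if the frozen wells together held up to 3 counts (adjusted p = 0.0470).

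Shank2 also differed between methods in SCRB-seq, where 3 of the partner genes could be tested. It was lower after mineral oil than after xylene with heat (-1.70, SE 0.47, adjusted p = 0.0131) and than after xylene at room temperature (-2.11, SE 0.47, adjusted p = 0.00237). With counts summed per library pool, 0 of 9161 genes were called in each of these comparisons, so Shank2 was not called there. Of the 8 other adhesion G protein-coupled receptors looked at, 1 could be tested in SCRB-seq and 7 in SMART-Seq2, and none of these passed the test in any of the comparisons by edgeR.

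Single nuclei on plates gave 98 FFPE nuclei in batch 1, 134 in batch 2 and 137 frozen nuclei, and the batch 3 table held 0 nuclei. The combined FFPE and frozen table held 143 FFPE nuclei, of which 134 were those of batch 2, with 0 differing values over 21117 shared genes. The other 9 belonged to no batch table and held 102136 to 4973791 counts each, 57.3% of all FFPE counts of that table, so levels are given with and without them. Median counts per nucleus were 180584 in batch 1, 42747 in batch 2 and 255329 in frozen nuclei. With 1 sample a group there is no test, and Poisson and exact binomial 95% intervals cover counting error only; SMART-Seq2 reads carry no molecular identifiers, so the true error is wider.

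Tenm1 and Tenm3 were at higher pooled levels in FFPE than in frozen nuclei in each batch. Tenm1 stood at 952 CPM (Poisson interval 938 to 967) in batch 1 and 374 CPM (362 to 386) in batch 2 against 56.4 CPM (54.6 to 58.3) in frozen nuclei. The 4 FFPE plates held 361, 385, 941 and 1013 CPM of Tenm1 and the 2 frozen plates 48.5 and 64.7 CPM, so no FFPE plate came near a frozen one. Tenm3 stood at 767 and 525 CPM in the FFPE batches and 157 CPM in frozen nuclei, and its plates ran from 360 to 1876 CPM in FFPE and from 144 to 169 CPM in frozen nuclei. Single nuclei carried much of this: 1 nucleus held 52.3% of the Tenm3 counts of the lowest FFPE plate and 1 held 47.6% of those of the highest, and the median nucleus was at 0 on 3 of the 4 FFPE plates. With the nucleus of the most Tenm3 counts left out of each plate, which was done after the values were seen, the FFPE plates held 173, 445, 468 and 1047 CPM and the frozen plates 102 and 105 CPM. The same step for Tenm1, where 1 nucleus held 61.8% of the counts of the highest plate, left 253 to 819 CPM against 39.5 and 43.9 CPM. For both genes the granule neuron list moved the same way, at 1608 and 1433 CPM in the FFPE batches against 75.3 CPM in frozen nuclei, and its part was not tested.

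Tenm4 was lower in FFPE nuclei on every plate. Its 4 FFPE plates held 291, 291, 442 and 481 CPM and the 2 frozen plates 621 and 678 CPM, and it stayed lower in the combined table, at 566 CPM against 650.1. Without the nucleus of the most Tenm4 counts on each plate, the FFPE plates held 119 to 383 CPM and the frozen plates 564 and 592 CPM. In Tenm2 and the latrophilins the FFPE and frozen plates overlapped. For Tenm2 and Adgrl1 that overlap came from single nuclei, 1 of which held 78.9% of the Tenm2 counts of its plate. With the nucleus of the most counts left out of each plate, Tenm2 stood at 315 to 613 CPM on FFPE plates against 840 and 953 CPM on frozen plates, and Adgrl1 at 0 to 59.0 CPM against 110 and 112 CPM. Adgrl2 and Adgrl3 plates still overlapped. Pooled Tenm2 stood at 817 CPM in batch 1, 519 CPM in batch 2 and 1061 CPM in frozen nuclei, but at 1727 CPM in the 143 FFPE nuclei of the combined table, so that its direction against frozen nuclei turned on the 9 added nuclei. Adgrl3 stood at 689.7 CPM in batch 1, above the 418 CPM of frozen nuclei, and at 234 CPM in batch 2, below them. Its 1098 CPM in the combined table came mainly from a single nucleus, which held 77.8% of its FFPE counts there and without which it was 309 CPM. Adgrl1 stood at 24.6 and 90.8 CPM in the FFPE batches and 145 CPM in frozen nuclei, and Adgrl2 at 3.74, 41.4 and 51.8 CPM. By the mean per nucleus batch 2 turned above frozen nuclei and batch 1 did not. Those means were 32.1, 137 and 90.6 CPM for Adgrl1 and 7.06, 61.4 and 55.1 CPM for Adgrl2.

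**Figure D3:**
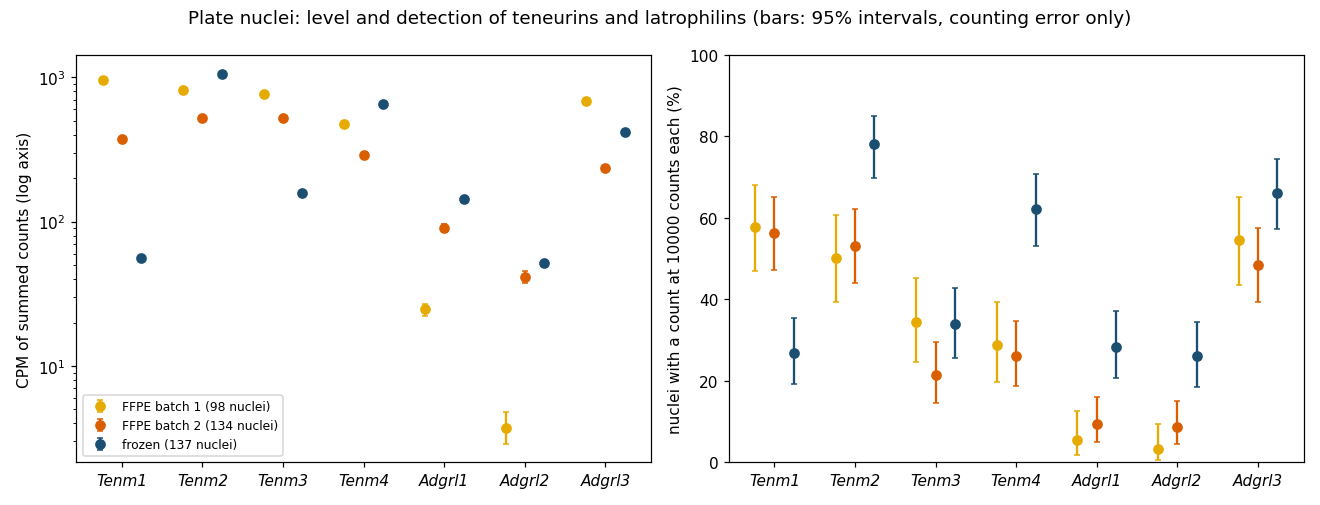
Pooled CPM of each gene (log axis) and thinned share of nuclei, in FFPE batch 1, FFPE batch 2 and frozen plate nuclei. Both have 95% intervals for counting error. The thinned share is that of nuclei with at least 1 count after every nucleus was thinned to 10000 counts. Shallower nuclei were left out, and the thinning was added after the data were seen. Tenm1 is the gene detected in a larger share of FFPE than of frozen nuclei in both batches.

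By the share of nuclei with at least 1 count, Tenm1 was the only member detected more often in FFPE nuclei of both batches, at 78.6% (exact binomial interval 69.1% to 86.2%) and 74.6% (66.4% to 81.7%) against 62.0% (53.4% to 70.2%) in frozen nuclei. Tenm2 was detected in 58.2% and 68.7% of FFPE nuclei and 89.8% of frozen nuclei. Tenm4 was detected in 43.9% and 41.0% against 80.3%, and Adgrl2 in 9.18% and 13.4% against 58.4%. Tenm3, at higher pooled levels in FFPE nuclei, was still detected in fewer of them, at 48.0% and 37.3% against 61.3%. Thinning every nucleus to 10000 counts, a step added after the data were seen that left out 8, 8 and 10 shallower nuclei, gave Tenm1 shares of 57.8% and 56.3% in FFPE against 26.8% in frozen nuclei. The thinned Tenm3 shares were 34.4% and 21.4% against 33.9%, so that in batch 1 the lower share did not hold at equal depth. For Tenm2, Tenm4, Adgrl1, Adgrl2 and Adgrl3 the thinned share was lower in both FFPE batches than in frozen nuclei.

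Most plate nuclei carried both sides of the adhesion pair. At least 1 teneurin together with at least 1 latrophilin was found in 69 of 98 nuclei of batch 1 (70.4%), 87 of 134 of batch 2 (64.9%) and 122 of 137 frozen nuclei (89.1%). The median nucleus had 3 of the 7 genes in each FFPE batch and 5 in frozen nuclei. All 7 genes were found together in 30 frozen nuclei, 0 of batch 1 (which allows up to 3.69% by the exact interval) and 3 of batch 2. Nuclei with a teneurin and no latrophilin made up 23.5% and 29.1% of the FFPE batches and 6.57% of frozen nuclei, and those with a latrophilin alone 3 in each set. Tenm1 without Tenm2 was seen in 29 nuclei of each FFPE batch but in 3 frozen nuclei. These counts were not thinned, and depth per nucleus differed between the sets.

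The FFPE nuclei were also split by the granule neuron marker Gabra6, which encodes a GABA receptor subunit, a split chosen after the values were seen. In batch 1, 32 nuclei with Gabra6 held 1670 CPM of Tenm1, with 30 of them positive, and the 66 without it held 494 CPM. In batch 2 the values were 431 CPM in 49 nuclei and 318 CPM in 85. Without the nucleus of the most Tenm1 counts on each side they were 1425 and 342 CPM in batch 1 and 349 and 215 CPM in batch 2, but the mean per nucleus in batch 2 ran the other way, at 391 and 410 CPM. Tenm3 ran the other way in batch 1, at 18.3 CPM with Gabra6 and 1245 CPM without, but not in batch 2, at 548 and 502 CPM. Pooled Tenm4 was lower with Gabra6 in both batches, at 34.6 against 757 CPM and at 143 against 434 CPM. The share of nuclei with Tenm4 was lower with Gabra6 in batch 1 (34.4% against 48.5%) but higher in batch 2 (46.9% against 37.6%). Gabra6 detection depends on depth, and the nuclei with it had median counts of 224451 and 61827 against 165138 and 40870.

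The droplet library held 7031 FFPE nuclei in the authors' 12 annotated classes, with a median of 325 UMIs (unique molecule counts) and a range of 235 to 998. No barcode was repeated in this 1 library. No doublet caller was run here and no nucleus was removed. No source read for these data says how the authors treated doublets. In the glial classes the marker lists matched the names: the oligodendrocyte list reached 13489 CPM in the oligodendrocyte class and at most 3038 elsewhere. Of the 6 classes called excitatory neurons, ExNeuron1 was highest for the cortical excitatory list (1991 CPM), ExNeuron3 for the granule neuron list (2204 CPM) and ExNeuron4 for the inhibitory neuron list (2119 CPM). The last 2 go against a reading as cortical excitatory neurons. ExNeuron2 held 1623 CPM of the granule neuron list and 1345 CPM of the cortical excitatory list, against 1275 CPM of the latter in ExNeuron3. The cortical excitatory list also stood at 1892 CPM in astrocytes and 1877 CPM in microglia, so it did not set the neuron classes apart. The ExNeuron classes are therefore called by number. Across all nuclei Tenm2 stood at 1682 CPM, Tenm1 at 1168, Adgrl3 at 818, Tenm4 at 288, Tenm3 at 267, Adgrl1 at 226 and Adgrl2 at 75.6 CPM. These are counts of 3′ ends, so they are given as read and not ranked as abundances.

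Each of the teneurins Tenm1, Tenm2 and Tenm3 had its highest level in a different neuron class. Tenm1 was highest in ExNeuron3, at 1947 CPM (Poisson interval 1811 to 2091), then ExNeuron2 at 1496 CPM and ExNeuron4 at 1151 CPM. These 3 neighbours in the order had intervals that did not overlap, while the other 9 of its 11 neighbouring pairs did. Tenm2 was highest in ExNeuron5 at 2475 CPM, ExNeuron4 at 2272 CPM and ExNeuron1 at 2205 CPM, which overlapped each other. It lay apart from these at 1612 CPM in ExNeuron6 and 1548 CPM in ExNeuron2. The next class was OPC at 1150 CPM (922 to 1416), whose interval lay apart from that of ExNeuron2 (1419 to 1684) and overlapped that of ExNeuron6 (1348 to 1913). In ExNeuron3 it was at 960 CPM. Tenm3 stood at 1108 CPM (interval 891 to 1361) in ExNeuron6 and 499 CPM in ExNeuron4, apart from each other and from the 256 CPM of astrocytes that followed.

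**Figure D4:**
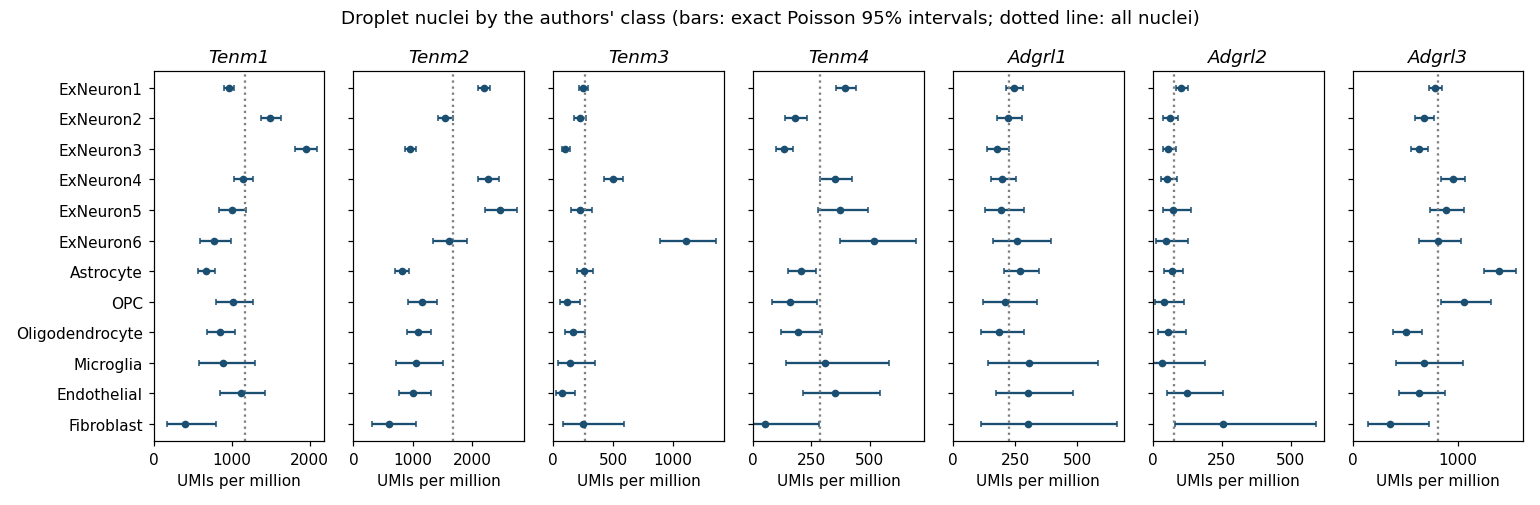
CPM (from UMIs) of each gene in the 12 annotated droplet classes, with exact Poisson 95% intervals for counting error. Tenm1 peaks in ExNeuron3, Tenm2 in ExNeuron5, ExNeuron4 and ExNeuron1, Tenm3 in ExNeuron6, and Adgrl3 in astrocytes.

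Tenm3 had the widest range of the members over the 10 classes with at least 100 nuclei, 15.7-fold between ExNeuron6 and endothelial cells (70.7 CPM, from 4 UMIs). The ranges of Tenm4, Adgrl2, Tenm2, Tenm1, Adgrl3 and Adgrl1 were 3.95-fold, 3.16-fold, 3.02-fold, 2.89-fold, 2.76-fold and 1.70-fold. Tenm4 stood at 517 CPM in ExNeuron6 and at 131 CPM in ExNeuron3, its lowest level in these 10 classes, with no neighbouring pair in its order apart. The next class up, OPC at 157 CPM, overlapped ExNeuron3 and was lower by mean per nucleus (130.8 against 132.6 CPM), and the 47 fibroblasts held 1 UMI of Tenm4. Tenm1 made up 62.1% of the teneurin UMIs in ExNeuron3 and 34.3% over all nuclei, and Tenm3 made up 27.6% in ExNeuron6 and 7.84% over all.

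Adgrl3 differed from the teneurins in being highest in a glial class. It stood at 1397 CPM (interval 1250 to 1557) in astrocytes and 1058 CPM in oligodendrocyte precursors (OPC). Neuron classes ran from 631 CPM in ExNeuron3 to 952 CPM in ExNeuron4, and oligodendrocytes were lowest of the 10 classes with at least 100 nuclei, at 506 CPM. The 47 fibroblasts were lower still, at 353 CPM from 7 UMIs. Neighbours in that order overlapped throughout, while the intervals of astrocytes and of ExNeuron4 did not (845 to 1069 CPM in ExNeuron4). Adgrl1 ran from 177 to 300 CPM and Adgrl2 from 39.2 to 124 CPM over the classes of at least 100 nuclei, with overlapping neighbours at every step.

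These class levels stand on a background, whose source (free RNA, doublets or others) was not tested. In microglia, taken as a class that should lack the neuronal genes, 20.4% of nuclei had a Tenm2 UMI (median 285 UMIs a nucleus) against 48.6% in ExNeuron5 (median 347). For Tenm1 the shares were 18.3% in microglia and 44.9% in ExNeuron3 (median 321), and for Adgrl3 17.2% in microglia and 36.2% in astrocytes (median 339). For Tenm3 they were 3.23% in microglia and 23.9% in ExNeuron6 (median 353). At equal depth, with each nucleus thinned to 250 UMIs and 183 nuclei left out, the highest class kept its distance: 36.9% against 16.5% for Tenm1, 36.8% against 15.3% for Tenm2, 19.9% against 0 of 85 nuclei (up to 4.25% by the exact interval) for Tenm3 and 27.0% against 10.6% for Adgrl3. Levels of Tenm1 and Tenm2 outside the neurons, with shares of nuclei between 20.5% and 27.0% in the astrocyte, oligodendrocyte, OPC and endothelial classes, lie near those of microglia. So did some neuron classes, with Tenm1 at 775 CPM in ExNeuron6 against 887 CPM in microglia and Tenm2 at 960 CPM in ExNeuron3 against 1058 CPM. Tenm4 and Adgrl1 each stood at 307 CPM in microglia (interval 140 to 583, from 9 UMIs), for Tenm4 above ExNeuron2 and ExNeuron3 and for Adgrl1 above each of the other 11 classes, so their class levels are not told apart from background. Adgrl3 stood at 683 CPM in microglia (417 to 1054), above ExNeuron3 and overlapping every neuron class and OPC, and the astrocyte interval lay apart from it. Among the 10 classes with at least 100 nuclei, the highest class was the same for Tenm1, Tenm2 and Tenm3 by mean level per nucleus, after thinning and in the 973 nuclei of at least 500 UMIs, whereas in those deeper nuclei Tenm4 was highest in ExNeuron1 and Adgrl3 in OPC. Microglia, with 3 nuclei of that depth, are outside this order, and held 6302 CPM of Tenm2 and 1454 CPM of Tenm4 there.

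The genes whose class pattern was most like that of each member were found by Pearson correlation of log2(CPM + 10) over the 12 classes, among 2734 genes with at least 200 UMIs. The classes share 1 library and differ in depth, so the values are descriptions. For Tenm1 they were Pde10a (r = 0.961), Grik2 (0.930) and Olfm3 (0.929). For Tenm2 they were Meg3 (0.935), Grm5 (0.922) and Syp (0.901), and for Tenm3 Nrip3 (0.899), Myo16 (0.896) and Trank1 (0.878). Tenm4 was most like Fstl4 (0.909), Atp2b1 (0.904) and Pi4ka (0.899), and Adgrl3 most like Frmd4a (0.925), Ctnnd2 (0.921) and Mgat5 (0.911). The least close matches were those of Adgrl1, namely Dnajb6 (0.847), Cst3 (0.832) and Myl12b (0.815). Adgrl2 had too few UMIs for this. Among the members themselves the highest correlation was that of Tenm2 and Tenm4 (0.730) and the lowest that of Tenm1 and Adgrl1 (-0.589).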

How the data were processed

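All values start from the gene tables the authors deposited: counts of reads or unique molecules per gene in bulk wells, plate nuclei and droplet nuclei, which are whole numbers in every table used. The submitters' processing notes name the genome builds hg19 and mm10; the aligner and counting method: not given in the sources used here. For SCRB-seq the mouse genes of the table were used.

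Wells were grouped by the treatment and nuclei number in the deposited tables of wells. Bulk counts were tested with edgeR 4.0.16 in R 4.3.3 (TMM scaling, its filter on low counts, quasi-likelihood test, Benjamini-Hochberg adjustment over all genes tested, threshold 0.05), in 1 fit of all treatments for FFPE against frozen and 1 of the 3 FFPE methods; the code was tested on simulated data. Alternatives were DESeq2 1.42.0 (size factors, Wald test), no filter, nuclei number as a covariate or block, each nuclei number alone, sums per library pool and leaving out each well. Plate and droplet nuclei were summed to CPM, with exact Poisson and exact binomial 95% intervals and no test. The intervals and the floor of 3 counts cover counting error only. The interaction with nuclei number and the thinning of plate nuclei to 10000 counts, and levels without the nucleus with the most counts of a gene, were added after the data were seen.

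Every member was named, as was each gene of a partner list and of a list of other adhesion receptors that passed a test, and the 3 genes most like each member. Members and lists were chosen with earlier results of these data known. The partners Flrt1 and Flrt3 were not used here. The values of 1 other gene of the partner list are not reported here, though the list's counts include it. Figures and sums were made with Python 3.11, numpy 2.4.6, pandas 2.3.3, scipy 1.17.1 and matplotlib 3.10.9.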

Additional observations from a re-analysis of the deposited data

Results flagged for a closer look

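In 5 of 40 sets of 8 SCRB-seq wells looked at, 1 well stood far above the other 7 by Dixon's criterion. Chance alone meets it in about 1 in 20 sets of normally distributed values. The CPM of low counts need not be so distributed, so 5 of 40 cannot be judged against that rate. Tenm1 reached 878 CPM in 1 well of 10 nuclei after xylene with heat (47 of 53509 counts), where the next well held 257 CPM and the median was 136 CPM. Tenm1 also reached 957 CPM in 1 well of 100 nuclei of that treatment, against 471 CPM in the next and a median of 373 CPM. For Tenm2, 1 well of 100 nuclei after xylene at room temperature held 1070.2 CPM, against 618 CPM in the next. For Tenm3, 1 well of 10 nuclei after xylene at room temperature held 2163 CPM (93 of 43001 counts), against 749.7 CPM in the next, and 1 well of 10 nuclei after mineral oil held 153 CPM, which is 2 of 13083 counts.

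The Adgrl3 difference between mineral oil and xylene with heat was not the same in wells of 10 and of 100 nuclei: by a test of interaction it differed by -1.84 on the log2 scale (10 minus 100 nuclei). Against xylene at room temperature that value was -2.52.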

How the results depend on the processing

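Of 101 settings tried on counts of members, 80 stayed within 1.5 times the value reported, and of 237 tried on single members 187 were counted as the same. For fits this meant the same direction and side of the threshold, or direction alone where no adjusted p was given. For plate ratios, which have no test, it meant the same direction and a value within the Poisson range. In SCRB-seq, members called between FFPE and frozen wells numbered 4, beside 857 of 1478 genes. They numbered 2 in wells of 10 nuclei (478 of 783 genes) and 1 with counts summed per library pool (77 of 10235). Between mineral oil and xylene with heat the 2 calls became 0 per pool, where 0 of 9161 genes were called. Between mineral oil and xylene at room temperature the 2 became 1 in wells of 100 nuclei (178 of 1953 genes) and 1 in wells of 10 (97 of 509). That number was 0 per pool (0 of 9161 genes) and 1 to 3 when single wells were left out. Between the xylene treatments 0 became 1 with no filter (2899 of 18205 genes). In SMART-Seq2, FFPE against frozen gave 2 to 5 calls when single wells were left out. Mineral oil against xylene with heat gave 1 with DESeq2's Wald test (16 of 8372 genes) and 1 with no filter (19 of 16292). When single wells were left out that comparison gave 0 to 1. With the nuclei number as a replicate block, which samples share only as a number, SMART-Seq2 FFPE against frozen kept 4 calls (429 of 9092 genes).

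Tenm3 between FFPE and frozen SCRB-seq wells turned from 0.16 to -0.39 with DESeq2 size factors, -0.41 with the Wald test and -0.032 to 0.31 when single wells were left out. In plate nuclei, 4 of 7 members had the higher pooled CPM in FFPE. The number was 2 without the 9 nuclei outside batch 2, and 1 by share of nuclei with at least 1 count, by share with at least 5, by thinned share, and by thinned share without the 9. The log2 ratio of Tenm2 turned to -0.41 with the mean per nucleus and -1.03 without the 9, that of Adgrl3 to -0.23 and -0.84 and to -0.33 without the nucleus holding the most counts of the gene in each group, and with the mean per nucleus that of Adgrl1 to 0.51 and of Adgrl2 to 0.081. Other than the nuclei left out, the cause was not tested. Depth limits Adgrl1 in both bulk assays and Adgrl2 in SCRB-seq.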
